A study of Mus musculus with 12 samples.

Results

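The comparison described here set all arrays with the VP16-CREB transgene switched on against all arrays without it, in whole hippocampus and in its subfield CA1 at once. It held 11 of the 12 arrays of the study: 7 induced and 4 uninduced, chosen by their titles. VC mice are transgenic mice in which doxycycline (dox) silences VP16-CREB, so that dox withdrawal turns it on. The induced arrays were VC hippocampus at 1 week (n = 2), 2 weeks (n = 2) and 5 weeks (n = 1) off dox, and microdissected CA1 of VC mice at 3 weeks off dox (n = 2). The uninduced arrays were wild-type hippocampus (n = 2), VC hippocampus kept on dox (n = 1) and wild-type CA1 (n = 1). The array of VC mice put back on dox after a period off it (n = 1) took no part. Each hippocampal sample pooled tissue of 6 to 10 mice, the wild-type mice were kept under the same conditions, and the sources used here do not name the promoter that drives the transgene.

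CREB is a transcription factor that binds the cAMP response element, a short DNA palindrome, and activates genes when neuronal activity or cAMP leads to its phosphorylation. VP16-CREB joins CREB to the activation domain of a herpes virus protein and drives such genes without that signal. In hippocampus CREB is known for its part in the late phase of long-term potentiation and in memory, and the study searched for genes whose induction goes with a facilitated late phase. Bdnf, Fos and the neuropeptide genes Pdyn and Sst are among the classical genes with CREB sites.

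Expression was read as array intensity, rescaled so that every array had the same trimmed mean, floored at 65.7 (6.04 on the log2 scale) and log2 transformed. All levels and differences below are on that log2 scale, and levels of different probe sets are not compared. Between 18% and 21.5% of probe sets lay at the floor on an array. Across 7069 tested probe sets, arrays correlated at 0.932 to 0.978 within hippocampus, 0.907 to 0.947 within CA1 and 0.828 to 0.921 between the regions, so region entered every fit as a block. Averaged over its arrays, CA1 had less signal than hippocampus for the choroid plexus gene Ttr (7.15 against 11.55) and for the dentate granule cell genes Dsp (9.19 against 10.50) and Tdo2 (7.81 against 8.65). The dentate genes Calb1 (10.93 against 11.29) and Lct (9.58 against 9.74) were also lower. Jun (11.39 against 9.92), Btg1 (9.12 against 8.99) and Npnt (8.58 against 8.53) of that list were higher. Of the CA1 pyramidal cell genes, Wfs1 (11.80 against 11.34), Pou3f1 (10.36 against 9.71) and Man1a (9.46 against 9.34) were higher in CA1. Dcn (11.08 against 11.87), Lmo4 (11.88 against 12.59), Ccn3 (11.36 against 11.81) and Neurod6 (10.54 against 10.81) were lower there, so neither list went 1 way.

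With both regions in one fit, 2 of 7069 probe sets rose with induction and none fell (0.0283% and 0% of those tested, limma, adjusted p under 0.05). At an unadjusted p under 0.05, 266 probe sets were higher (3.76%) and 220 lower (3.11%), together 6.88%, and 46% of all probe sets had a positive difference. The 2 that rose were probe sets of Creb1 and Pdyn. Over all probe sets the median difference was -0.02, the median size of a difference 0.12, and the median residual SD 0.25. All tests were two-sided, and an effect is a single induced-minus-uninduced difference shared by both regions and all times.

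Creb1, the gene that encodes CREB, read 6.04 and 6.33 in wild-type hippocampus and 6.04 on dox. The 1-week arrays read 8.31 and 8.50, the 2-week arrays 9.14 and 9.63, and the 5-week array 9.15. Wild-type CA1 was at 6.04 and VC CA1 at 8.86 and 9.56. Every induced array lay above every uninduced array, and 3 of the 4 uninduced arrays were at the floor. The joint difference was 2.91 ± 0.24 (SE), at least 7.49-fold (adjusted p = 0.000565, limma). A second tested Creb1 probe set had a difference of 1.63 ± 0.33 and did not pass (adjusted p = 0.251). It separated the arrays of each region, with 6.36 to 7.66 in uninduced and 8.14 to 9.15 in induced hippocampus. A further Creb1 probe set lay below the filter and was not tested. Its groups overlapped in hippocampus, with 6.04 to 7.19 in uninduced and 6.08 to 7.53 in induced arrays. In CA1 it read 6.04 in wild type against 7.18 and 7.54 in VC mice. The sources used here do not say which of these probe sets can detect the transgene.

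Pdyn encodes the precursor of the dynorphins, opioid peptides that granule cells of the dentate gyrus release. It read 6.04 and 6.65 in wild-type hippocampus and 6.79 on dox. The 1-week arrays read 8.93 and 9.70, the 2-week arrays 10.89 and 11.13, and the 5-week array 10.84. Wild-type CA1 read 7.82 and VC CA1 10.92 and 10.97. The groups did not overlap in either region, and the arrays at 1 week were the lowest induced ones. The joint difference was 3.63 ± 0.38, at least 12.3-fold (adjusted p = 0.00347, limma), with 3.80 within hippocampus and 3.12 within CA1. Another Pdyn probe set had a difference of 1.47 ± 0.39 and did not pass (adjusted p = 0.393). On it wild-type CA1 stood far below the rest at 6.30, against 9.63 and 9.61 in VC CA1 and 9.44 to 10.87 over all hippocampal arrays.

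**Figure D1:**
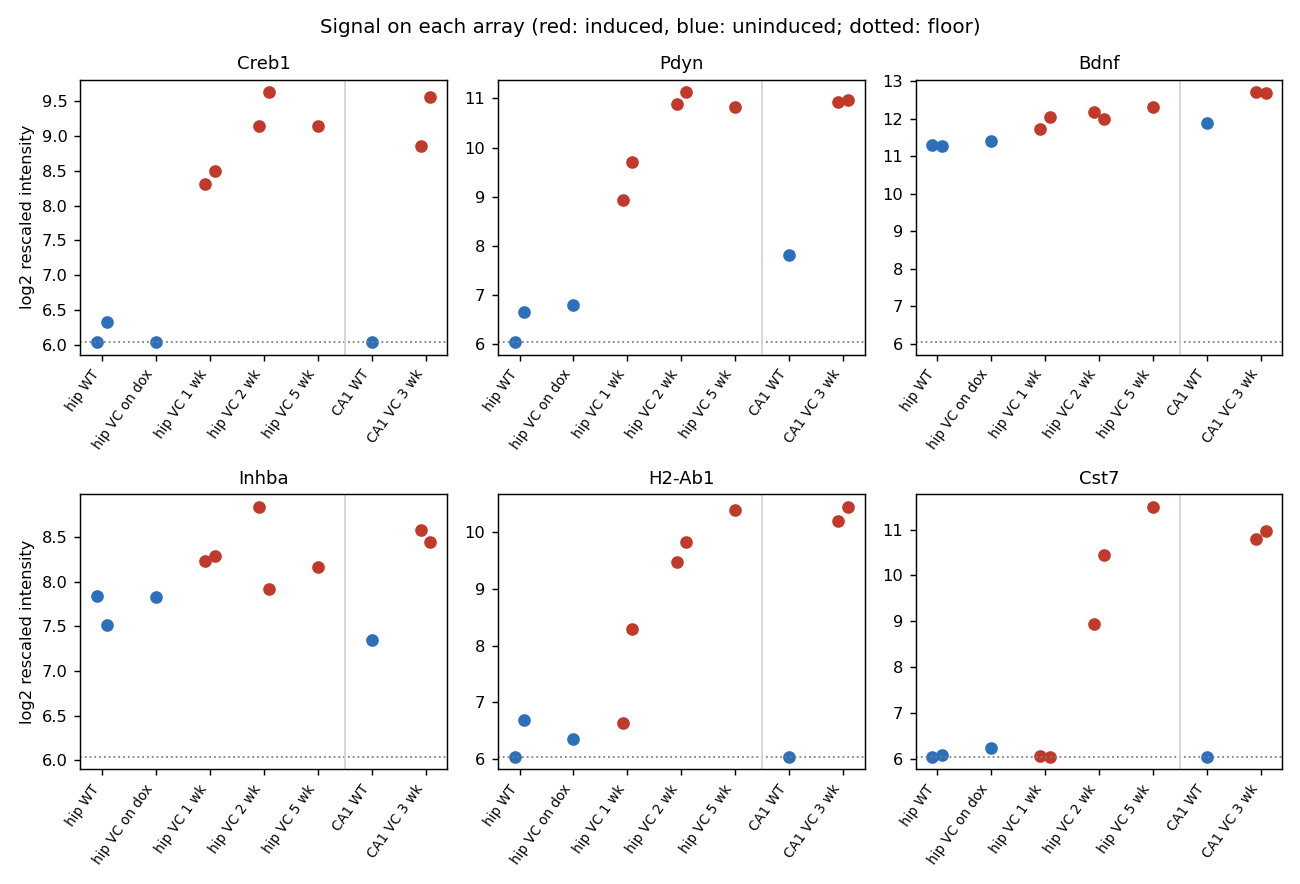
Log2 rescaled intensity (vertical axis) of 6 genes on each of the 11 arrays, by group (horizontal axis), with induced arrays in red, uninduced arrays in blue, each point 1 array, the floor dotted and a grey line between hippocampus and CA1. Creb1, Pdyn, Bdnf and Inhba were above their region's uninduced arrays on all induced arrays, whereas Cst7 stayed at 6.04 and 6.06 at 1 week and reached 8.94 to 11.49 later.

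Bdnf came closest among the other genes. It encodes a neurotrophin that supports synaptic plasticity. Its level was 11.30 and 11.26 in wild-type hippocampus and 11.40 on dox, and 11.73, 12.05, 12.17, 11.99 and 12.30 in induced hippocampus in order of time. Wild-type CA1 read 11.88 and VC CA1 12.70 and 12.67. All induced arrays were above all uninduced arrays of their region, and the effect was 0.73 in hippocampus and 0.81 in CA1. The joint difference of 0.75 ± 0.12, or 1.68-fold, missed the threshold (adjusted p = 0.0886, limma).

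The next probe sets by p did not pass either, with adjusted p from 0.250 to 0.271 in limma. Tpm4, a tropomyosin of the actin cytoskeleton, read 10.12 to 10.34 in uninduced and 10.67 to 11.12 in induced hippocampus, and 10.49 against 11.23 and 11.11 in CA1 (0.62 ± 0.11). Adcy7, an adenylyl cyclase that makes cAMP, read 7.58 to 8.04 against 8.24 to 9.06 in hippocampus, and 6.04 against 7.82 and 7.74 in CA1 (1.01 ± 0.20). Lamp2, a lysosomal membrane protein, had a difference of 0.64 ± 0.13. H1f2, a linker histone, had 0.88 ± 0.19, and Polr3k, a subunit of RNA polymerase III, had 0.71 ± 0.13. Second probe sets of Lamp2 (0.52 ± 0.24) and Polr3k (0.47 ± 0.23) had smaller differences, and their groups overlapped in hippocampus. Tinf2, a telomere-binding protein, had 0.95 ± 0.20, and Dap, a gene named for its link to cell death, had 0.82 ± 0.18. H2-Ab1, a chain of MHC class II, had a large difference of 3.02 ± 0.61 with a wide error. The values behind it were 6.04 to 6.69 in uninduced hippocampus, 6.63 and 8.30 at 1 week, 9.48 to 10.39 later, and 6.04 against 10.21 and 10.45 in CA1. H2-Q5, an MHC class I gene, had 1.90 ± 0.41, but its probe set is of a kind shared by related MHC sequences. Of the 12 genes with the smallest p among the higher ones, 9 had induced arrays wholly above uninduced arrays in both regions. That held for 78 of all 7069 probe sets (1.1%), and the 12 were chosen on the same arrays. Within a single region such separation was commoner, at 1.71% of probe sets higher and 1.66% lower in hippocampus, and 29.4% and 31.6% in CA1 with its 3 arrays.

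On the lower side no gene passed, and the 12 with the smallest p had adjusted p from 0.271 to 0.393 (limma). Tarbp2, a partner of the enzyme Dicer in small RNA processing, had the largest difference of them, -1.004 ± 0.21. It read 9.74 to 9.83 on the uninduced hippocampal arrays, 8.21 to 9.18 on the induced ones, and 10.18 against 9.60 and 8.80 in CA1. Snhg11, a long noncoding RNA that hosts small nucleolar RNAs, read 12.75 to 12.80 against 11.46 to 12.48 in hippocampus and 12.21 against 11.48 and 11.58 in CA1 (-0.73 ± 0.17). Both genes had tightly grouped uninduced arrays and a wider induced group, with no overlap.

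The others were differences of at most 0.65 in size. They were Ldb1 (-0.65), a cofactor of LIM proteins, Synj2bp (-0.60), a mitochondrial outer membrane protein, Epha7 (-0.57), an ephrin receptor, and Bcat2 (-0.56), the mitochondrial branched-chain aminotransferase. Spout1 (-0.51), Tbc1d20 (-0.48), Hnrnpm (-0.46), Abcc8 (-0.46), Ivd (-0.46) and Incenp (-0.45) completed them. Abcc8 encodes the sulfonylurea receptor of a potassium channel and Ivd an enzyme of leucine breakdown. Epha7 read 11.36 to 11.51 in uninduced and 10.50 to 11.23 in induced hippocampus, and 11.91 against 11.22 and 10.89 in CA1. A second probe set of Incenp had a joint difference of 0.68, with 0.09 in hippocampus and 2.33 in CA1. There the single wild-type array read 6.29 against 8.85 and 8.38 in VC CA1. Second probe sets of Synj2bp (-0.10), Spout1 (-0.01) and Abcc8 (-0.23) had smaller differences than the first. Of these 12, 9 had no overlap in either region, which held for 75 of all probe sets (1.06%). These 12 too were chosen on the same arrays, so the contrast with that share is partly set by the choice.

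The 2 regions share no array, so the effect in one could be set beside the effect in the other. For this each region was fitted in limma on its own arrays alone. The 100 probe sets with the smallest p in hippocampus comprised 64 higher and 36 lower ones. In CA1, 52 of the 64 (81.2%) were also higher, with a median difference of 0.72, and 28 of the 36 (77.8%) were also lower, with a median of -0.32. Over all probe sets 47.9% were higher in CA1, with a median of -0.02. Taking the 100 smallest p in CA1, 89 were higher and 63 of them (70.8%) were also higher in hippocampus (median 0.43, against 45.7% of all). Of the 11 lower ones 6 (54.5%) were also lower in hippocampus (against 54.3% of all). Over all 7069 probe sets the effects in the 2 regions correlated at r = 0.343 (Spearman's rho = 0.239) and had the same sign for 58.7%, which describes these arrays and carries no p because genes are not independent replicates. Within each region all probe sets also share that region's uninduced arrays.

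The effect differed between the regions for 4 probe sets, all with a higher value in CA1 (0.0566% of those tested, interaction term, adjusted p = 0.0497 for each, limma), and 5.81% had an unadjusted p under 0.05. They belonged to Rapsn, which clusters acetylcholine receptors, Ube2f, an enzyme of neddylation, Cyb561, a cytochrome of secretory vesicles, and Plod3, a lysyl hydroxylase of collagen. In each case the single wild-type CA1 array stood alone. Rapsn read 9.19 to 9.77 over all hippocampal arrays, 8.99 and 8.96 in VC CA1, and 6.92 in wild-type CA1. Ube2f read 6.17 there against 8.29 to 9.39 on the other 10 arrays. Cyb561 read 7.16 against 9.11 to 10.39, and the Plod3 probe set was at the floor, against 8.03 to 8.79. Another Cyb561 probe set and another 2 of Plod3 did not pass (interaction adjusted p = 0.989 for the former). Without the wild-type CA1 array there is no effect in CA1 to compare, and leaving out single other arrays gave from 0 to 21 higher probe sets and from 0 to 13 lower ones. In CA1 the only control was this wild-type array, so genotype and induction cannot be told apart there.

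Within CA1 alone the joint model called 33 probe sets (0.467%), 27 higher and 6 lower, against 2 within hippocampus. A fit on the 3 CA1 arrays alone called none in limma (219 higher and 51 lower at an unadjusted p under 0.05), and the 33 calls use an error estimated over both regions together. Among the 27 were the 4 probe sets of Rapsn, Ube2f, Cyb561 and Plod3 given above and the second Incenp probe set. Their differences were 2.04 to 2.40 in CA1 and -0.21 to 0.09 in hippocampus. The 27 also held Creb1, the second Pdyn probe set, Adcy7 and Cd52. Further ones were A2m, a protease inhibitor (3.56), Tnfrsf1a, a receptor of tumour necrosis factor (2.17), and Cd14, a receptor of lipopolysaccharide (2.34). These last 3 are named here after their values were seen. For 27 of the 27 the wild-type CA1 array lay below the mean of uninduced hippocampus (100%, against 58.4% of all probe sets), with a median of CA1 minus hippocampus of -2.35. The induced arrays of the 2 regions differed by a median of -0.26 for the same probe sets. The regions thus differed less on their induced than on their uninduced arrays for these probe sets, as a description of arrays that also chose them.

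**Figure D2:**
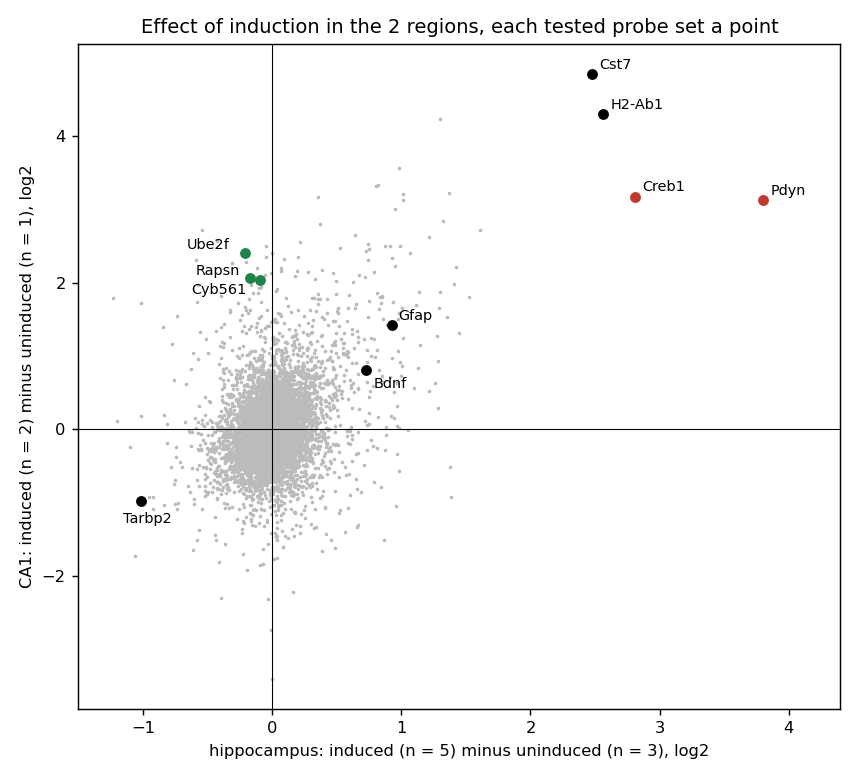
Difference between induced and uninduced arrays in hippocampus (horizontal axis, log2) and in CA1 (vertical axis, log2), each grey point 1 of 7069 tested probe sets. Red points passed the joint test (Creb1 and Pdyn), green points are 3 of the 4 whose effect differed between the regions, and black points are other named genes. Cst7, H2-Ab1, Gfap and Bdnf lay above 0 in both regions and Tarbp2 below 0 in both.

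Genes that textbooks list as CREB targets were mostly above their uninduced level. Of 30 listed, 20 could be tested and 17 were positive, with a median of 0.27 against -0.02 over all probe sets. At an unadjusted p under 0.05, 7 were higher and none lower (35% against 3.76% of all probe sets), and none passed over all probe sets in limma. A gene that is low on uninduced arrays passes the filter only through arrays where it is high, so in this and the other lists the counts over tested members are partly set by the filter. It was passed by 20 of 24 genes of this list on the array, 26 of 31 immediate early genes, 12 of 14 of MHC class I, 7 of 9 of MHC class II, 7 of 12 complement, 25 of 33 microglia, 24 of 25 lysosome and 20 of 21 astrocyte genes. The count uses each gene's brightest probe set, which for Pdyn is the one that did not pass. Inhba, a subunit of activin, read 7.84, 7.52 and 7.83 on the uninduced hippocampal arrays, 7.92 to 8.84 on the induced ones, and 7.35 against 8.59 and 8.45 in CA1 (0.72 ± 0.18, adjusted p = 0.377). Th, tyrosine hydroxylase, had a difference of 0.56, with 0.74 in hippocampus and 0.07 in CA1. Npy, a neuropeptide of interneurons, had 0.63 ± 0.24. Sst, the peptide of another class of interneurons, was flat at 13.02 to 13.60 on all 11 arrays (-0.02 ± 0.14), and Penk, the enkephalin precursor, had -0.32. Nr4a1, an orphan nuclear receptor, had 0.20 ± 0.29. Crem, a relative of Creb1 with inducible repressor forms, had 2 probe sets below the filter, which read 7.63 to 8.50 and 7.01 to 7.95 on uninduced arrays and 8.07 to 8.52 and 7.14 to 8.57 on induced ones. Among the 5 tested members of the CREB family and its cofactors Creb1 alone passed, and Crebbp (0.26), Creb3l1 (0.03), Atf2 (0.01) and Atf4 (-0.06) did not.

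Immediate early genes, the first to respond when a neuron is active, had a median of 0.31, with 21 of 26 positive and 6 higher at an unadjusted p under 0.05 (23.1% against 3.76% of all probe sets). Atf3, a stress-induced transcription factor, read 8.77 to 9.11 in uninduced and 9.42 to 10.43 in induced hippocampus, and 11.05 against 11.59 and 12.37 in CA1 (0.97 ± 0.23, adjusted p = 0.356, limma). Fos, a subunit of AP-1, read 9.91 to 10.38 against 10.52 to 12.46 in hippocampus, and 12.57 against 12.54 and 13.64 in CA1 (1.03 ± 0.34, adjusted p = 0.503). Fos thus separated the hippocampal groups but not those of CA1, where the wild-type level was already above that of any hippocampal array. The same order between regions held for Atf3 and for Ccn1, a matrix protein (8.30 in wild-type CA1 against 6.23 to 6.50 in uninduced hippocampus). Whether the microdissection of CA1 had a part in these levels was not tested.

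Promoter sequences from RefSeq (build GRCm38.p6, 300 bases from upstream of each start to just after it) were searched on both strands for the whole cAMP response element, TGACGTCA, and for a 5-letter core of it, TGACG or CGTCA, which the whole element also holds. Of the 5436 tested genes 4389 had a window. A whole element was in 158 of them (3.6%) and a core in 1625 (37%). Among genes higher at an unadjusted p under 0.05, 10 of 191 had a whole element (5.24%) and 71 a core (37.2%). Among lower ones, 2 of 152 had a whole element (1.32%) and 59 a core (38.8%). Over single windows in the whole table, some genes having several, the shares were 1.79% and 20.8%. No test was made on these shares.

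The windows of Creb1 and Pdyn, the genes that rose, held neither form, which says only that these letters are not in those windows. The stretches below show 4 promoters with a match, from 130 bases before the start to 20 after it, with whole elements and cores in capitals and the rest in lower case. Sst (chr16:23890825-23890974, minus strand) is shown because it has the whole palindrome, 48 bases before the start, and no difference in level. Tinf2 (chr14:55681798-55681947, minus strand) is the one gene among the 12 named higher ones with a whole element, 56 bases before its start. Bdnf (chr2:109692306-109692455, plus strand) had a core in 1 of its 7 windows, 35 bases before that start. Fos (chr12:85473760-85473909, plus strand) had 2 cores, 66 and 129 bases before the start.
Sst: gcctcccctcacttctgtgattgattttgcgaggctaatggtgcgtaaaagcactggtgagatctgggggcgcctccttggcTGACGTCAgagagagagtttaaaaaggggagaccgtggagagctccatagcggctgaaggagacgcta
Tinf2: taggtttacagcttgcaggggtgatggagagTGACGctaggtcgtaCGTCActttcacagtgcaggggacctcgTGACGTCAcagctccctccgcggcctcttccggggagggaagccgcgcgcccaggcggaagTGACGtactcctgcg
Bdnf: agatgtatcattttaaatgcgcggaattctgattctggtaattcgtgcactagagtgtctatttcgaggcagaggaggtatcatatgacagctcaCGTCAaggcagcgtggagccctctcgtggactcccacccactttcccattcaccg
Fos: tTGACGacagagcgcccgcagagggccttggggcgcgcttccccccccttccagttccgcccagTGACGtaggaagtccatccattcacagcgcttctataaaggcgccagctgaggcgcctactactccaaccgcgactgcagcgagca
The element of Sst is one unbroken palindrome, whereas Bdnf and Fos hold no whole element. Capitals mark only the letters searched for, and a letter beside a core can match the palindrome too. Beside these sequences the joint differences were -0.02 for Sst, 0.95 for Tinf2, 0.75 for Bdnf and 1.03 for Fos, none of which passed in the joint fit.

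The 4 largest medians over the 33 lists belonged to immune genes, although none of their members passed in the joint fit. MHC class II genes, which present peptides to helper T cells, had a median of 1.09 with 7 of 7 positive. Besides H2-Ab1 they included Cd74, the invariant chain, at 8.88 to 9.19 in uninduced and 9.39 to 11.93 in induced hippocampus, and 8.01 against 10.78 and 11.24 in CA1 (1.49 ± 0.49, adjusted p = 0.506, limma). For MHC class I and antigen processing the median was 0.70, with 10 of 12 positive and 7 higher at an unadjusted p under 0.05 (58.3% against 3.76% of all probe sets). B2m, which encodes beta-2 microglobulin, read 11.10 to 11.47 against 11.36 to 13.46 in hippocampus and 11.44 against 12.63 and 13.54 in CA1 (1.04 ± 0.36, adjusted p = 0.538). The groups of B2m overlapped at 1 week. Of 27 interferon response genes on the array 13 passed the filter on low values, with a median of 0.68 and 11 positive. Only 1 had an unadjusted p under 0.05 (7.69% against 3.76% of all probe sets). That was Ifitm3 (0.83 ± 0.30), which restricts virus entry.

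Microglia and macrophage markers had a median of 0.76, with 22 of 25 positive and 15 higher at an unadjusted p under 0.05 (60% against 3.76% of all probe sets). Itgb2, the beta chain of leukocyte integrins, had 1.14 ± 0.25 (adjusted p = 0.274, limma). Cd52, a leukocyte surface peptide, read 7.91 to 8.21 in uninduced and 8.42 to 10.52 in induced hippocampus, and 7.02 against 11.26 and 11.26 in CA1 (2.07 ± 0.52, adjusted p = 0.377). Cd68, a protein of phagocytic lysosomes, read 9.14 to 9.35 against 9.46 to 10.69, and 8.88 against 10.40 and 11.09 (1.09 ± 0.28). Neither gene's groups overlapped in either region. Cst7, an inhibitor of lysosomal proteases, read 6.04 to 6.24 uninduced and 6.06 and 6.04 at 1 week, so its groups overlapped despite a difference of 3.09 ± 0.98 (adjusted p = 0.471). C1qa, a chain of complement C1q, had 1.03 ± 0.36 (adjusted p = 0.538), and the 7 complement genes, all positive, had a median of 0.38. Lysosomal genes and cathepsins had a median of 0.36, with 19 of 24 positive, 8 higher and 1 lower at an unadjusted p under 0.05 (3.76% and 3.11% of all probe sets). The lower one was Lipa, lysosomal acid lipase (-0.87). Cytokine and chemokine genes had a median of 0.12 over 17 genes.

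Within the induced group these lists were uneven. The median of the microglia markers, relative to the uninduced mean of the region, was 0.02 and -0.04 on the 1-week arrays, 0.56 and 0.86 at 2 weeks, 1.54 at 5 weeks, and 1.53 and 1.56 in VC CA1. That of MHC class I was 0.04 and 0.13, then 0.48 and 0.39, then 1.25, and 0.94 and 1.06 in CA1. The summed linear intensity of the microglia list was 54584 to 65962 on uninduced and 51013 to 118700 on induced hippocampal arrays, and 54187 against 102520 and 114840 in CA1. By this sum the 1-week arrays (51013 and 58588) were below and within the uninduced range, and the other 5 induced arrays above it. In such bulk samples more cells of a type and more RNA per cell cannot be told apart.

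**Figure D3:**
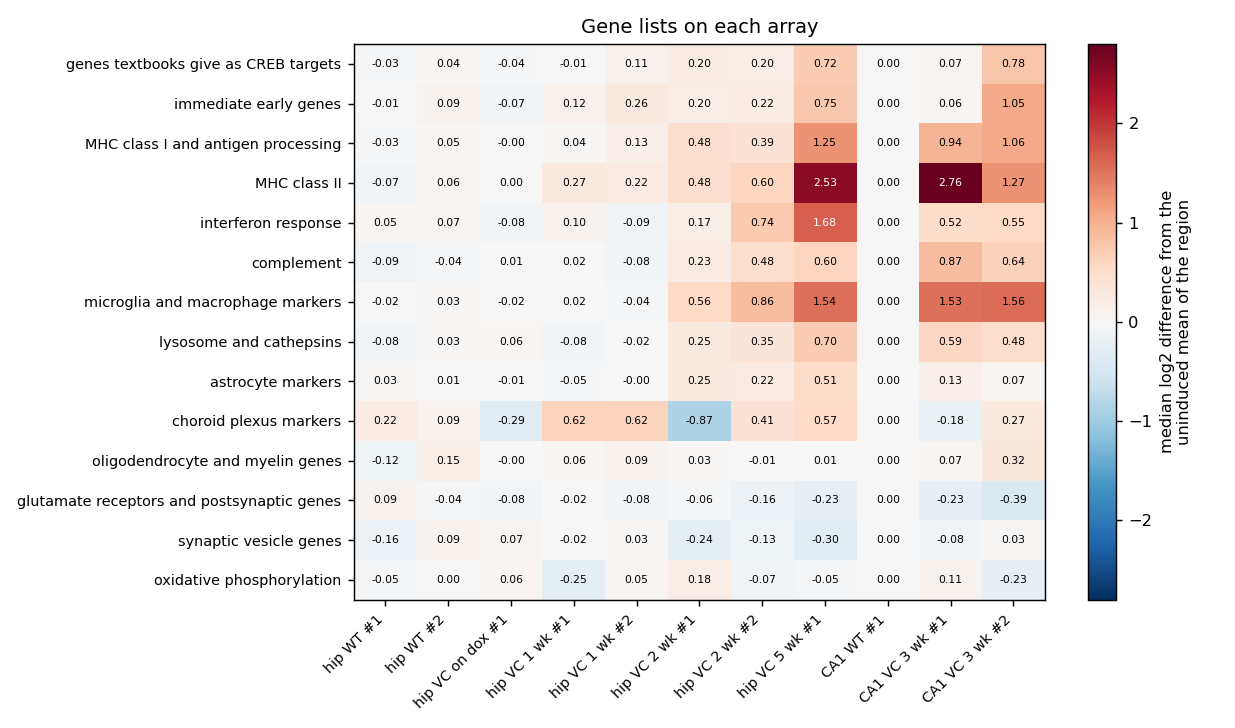
Median log2 difference of each gene list (rows) from the uninduced mean of the same region, on each of 11 arrays (columns), with red above 0, blue below 0 and the value printed in each cell. Single wild-type CA1 is its own reference and reads 0 throughout. Microglia markers were at 0.02 and -0.04 at 1 week and at 0.56 to 1.56 on the later induced arrays.

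Markers of other cell types were closer to 0. Astrocyte markers had a median of 0.13 with 12 of 20 positive (46% of all probe sets) and 6 higher at an unadjusted p under 0.05 (30% against 3.76%). Gfap, the intermediate filament of astrocytes, had 2 tested probe sets with 1.05 ± 0.30 and 1.27 ± 0.42 (adjusted p = 0.393 and 0.503, limma). The first read 9.92 to 10.21 in uninduced hippocampus, 10.45 and 10.26 at 1 week, 10.95 to 12.12 later, and 9.51 against 10.80 and 11.07 in CA1, with no overlap. Fabp7, a fatty acid binding protein of immature astrocytes, had 0.72 ± 0.18. The median was 0.05 for oligodendrocyte and myelin genes (8 tested), 0.03 for endothelial cells and pericytes (14), 0.01 for interneuron markers (12) and 0.38 for the 3 blood markers. No gene of the endothelial or blood lists had an unadjusted p under 0.05. Choroid plexus markers had a median of 0.41 with 5 of 6 positive, but -0.11 in CA1. Their summed intensity ran from 5598.8 to 8592.3 on uninduced and from 6703.8 to 16733 on induced hippocampal arrays, and was 4920.9 against 5047.8 and 6413.7 in CA1. Igfbp2, an insulin-like growth factor binding protein of that list, had 0.63 ± 0.14 and is also in the growth factor list. The part of choroid plexus tissue in such values was not tested.

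Most neuronal lists had medians slightly below 0. The median was -0.07 for dentate granule cell markers, -0.12 for CA1 pyramidal cell markers and -0.08 for CA3 and CA2 markers, with 5 of 7, 5 of 7 and 7 of 7 genes negative. It was -0.12 for glutamate receptors and postsynaptic genes (11 of 13 negative), -0.10 for synaptic vesicle genes (13 of 20), -0.09 for cAMP and G protein signalling (18 of 23), -0.09 for potassium channels (8 of 12) and -0.08 for calcium channels and buffers (10 of 17). The median of all probe sets was -0.02, and no gene of these lists passed. Single genes with an unadjusted p under 0.05 were Dlg3, a synaptic scaffold (-0.30 ± 0.11), Adcy9, an adenylyl cyclase (-0.35 ± 0.14), and Kcnd2, an A-type potassium channel (-0.35 ± 0.16). They were 1 of 13, 1 of 23 and 1 of 12 genes of their lists, and the other lists given so far in this paragraph had no lower one. Among all probe sets 3.11% were lower, so these single genes are not read as a trait of the lists. On the higher side was Syt4, a vesicle protein (0.36 ± 0.12), 1 of 20 genes of its list (5% against 3.76% of all probe sets). Oxidative phosphorylation (-0.05), ribosomal proteins (0.06), the constitutive proteasome (0.02), heat shock proteins (0.05) and cell death genes (-0.03) had medians within 0.1 of that of all probe sets, while GABA receptors (0.10, 4 tested) and cell cycle genes (0.16) were higher. Neuropeptides had 0.11, with 2 of 17 genes higher and 1 lower at an unadjusted p under 0.05 in limma (3.76% and 3.11% of all probe sets). Neurotrophins and growth factors had -0.03. In that list Bdnf, Igfbp2 and Inhba were the 3 genes with an unadjusted p under 0.05 (25% of 12, against 3.76% of all probe sets).

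**Figure D4:**
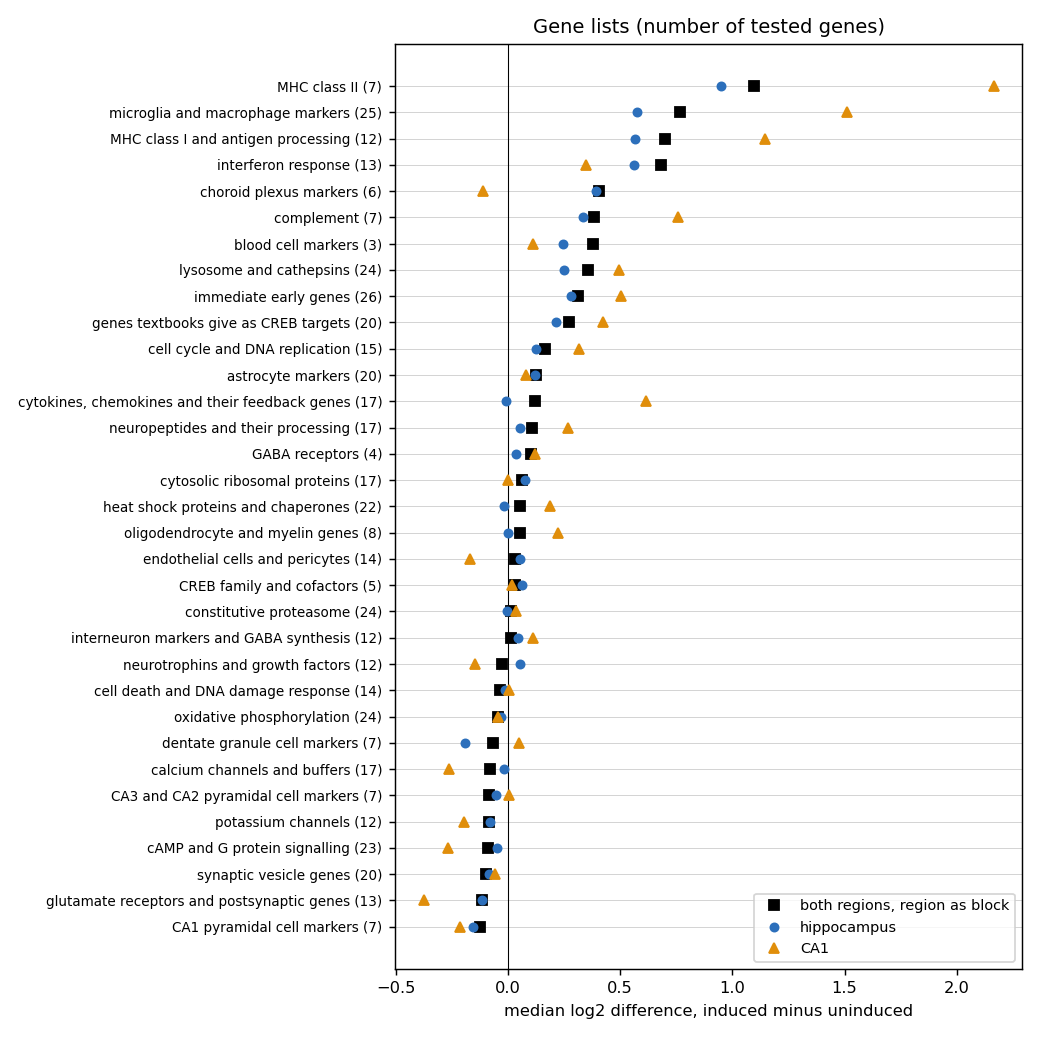
Median log2 difference between induced and uninduced arrays for each gene list (vertical axis, number of tested genes in brackets), in the joint fit (squares), within hippocampus (circles) and within CA1 (triangles). MHC class II (1.09), microglia (0.76), MHC class I (0.70) and interferon (0.68) genes had the largest joint medians, and the lists of synaptic, channel and neuron marker genes lay between -0.12 and 0.10.

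The joint effect weights the 1-week arrays like the rest. Without both of them the same fit called 51 probe sets higher and none lower (0.721% of those tested, limma). They comprised 44 probe sets with a single symbol, for 39 genes, and both probe sets that passed with the 1-week arrays. Pdyn (4.05), Creb1 (3.17) and Bdnf (0.83 ± 0.11, adjusted p = 0.0134) passed, as did the second probe sets of Creb1 (1.85) and Pdyn (1.84). Neuronal genes were few: Slc32a1, the vesicular transporter of GABA, passed with 1.00 ± 0.14 (adjusted p = 0.0147). It read 12.05 to 12.42 in uninduced hippocampus, 11.65 and 12.35 at 1 week, 13.17 to 13.25 later, and 12.55 against 13.80 and 13.29 in CA1. Atf3 (1.21) and Gadd45b, a DNA damage response gene that neuronal activity induces (1.07), were the immediate early genes that passed.

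Immune and glial genes made up much of the rest. H2-Ab1 rose by 3.77 ± 0.23 (adjusted p = 0.000115, limma), Cst7 by 4.38 ± 0.43 (adjusted p = 0.00372), Cd52 by 2.62 and Cd68 by 1.42. Gfap rose with both probe sets (1.80 and 1.39), C1qa (1.45) and C1qc (1.37) with 1 each, and H2-K1 and H2-D1 with 2 each, all 4 of the kind shared by related MHC sequences, so that these 2 symbols may not be separate genes here. The remaining ones of these lists were Tyrobp, a signalling adaptor (1.66), Aif1 (1.48), Itgb2 (1.38), Laptm5 (0.98), Ctsz, a cathepsin (1.69), and Grn, progranulin (0.95). In all 14 of the 39 genes (35.9%) were on an immune or lysosomal list, as were 100 of the 5436 genes tested (1.84%), with the lists chosen when earlier results of these arrays were known. Others of the 39 were Tinf2 (1.10), Adcy7 (1.14), Dap (0.90), Tpm4 (0.69), F2r, a thrombin receptor (0.76), Hsd11b1, which regenerates glucocorticoids (1.10), and Bach1, a repressor of haem-responsive genes (0.66).

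The 1-week arrays took no part in that selection, although the uninduced arrays did. There 41 of the 51 probe sets lay above the mean of the uninduced hippocampal arrays, against 48.2% of all probe sets, and 22 lay above every one of them on both 1-week arrays, against 12.4% of all probe sets. The 51 were chosen as higher than these same uninduced arrays, so neither share is a like background. The median difference of the 51 was 0.24 at 1 week (-0.01 over all probe sets, with the same limit). It was 1.11 at 2 weeks, 1.74 at 5 weeks and 1.58 in CA1 among the arrays that chose them. Pdyn and Creb1 had the 2 largest differences at 1 week (2.82 and 2.27), followed by H2-Ab1 (1.10). Immune and glial genes were spread at 1 week, with H2-Q5 (1.01), Ccl9 (0.68), Itgb2 (0.52) and Cd52 (0.40) above the uninduced mean, Gfap at 0.01 and 0.24 with its 2 probe sets, and Cst7 (-0.07) and Tyrobp (-0.31) below it. The count of 51 became 13 without the wild-type CA1 array or with hippocampus alone, 20, 21 and 24 without each of the uninduced hippocampal arrays, and 26 to 61 without a single induced array.

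**Figure D5:**
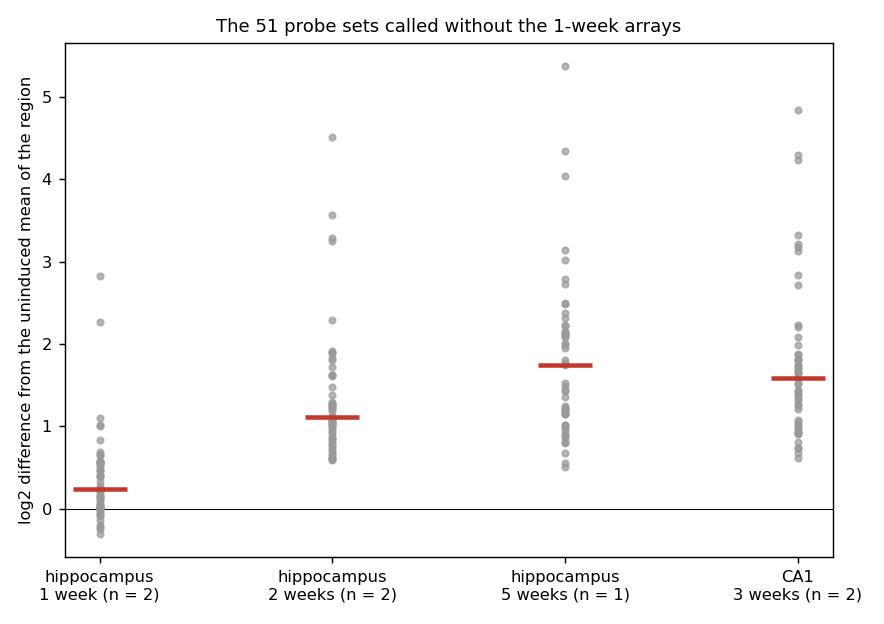
Log2 difference from the uninduced mean of the region (vertical axis) for the 51 probe sets called without the 1-week arrays, by region and time off dox (horizontal axis), each grey point 1 probe set and each red bar the median. The medians were 0.24 at 1 week, 1.11 at 2 weeks, 1.74 at 5 weeks and 1.58 in CA1. The selection did not use the 1-week arrays, but it did use the uninduced arrays they are set against.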

How the data were processed

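Poly(A) RNA was isolated from total RNA, labelled with biotin and hybridised to MG-U74Av2 arrays, per the labels. The deposited values are linear intensity per probe set, made with the Affymetrix software GCOS per the submitters' processing notes. Its version, algorithm and scaling were not given in the sources used here. A mean trimmed by 2% at each end was 500.3 to 500.4 on 4 arrays (wild-type hippocampus 1 and all 3 of CA1) and 3002 on 8, so each array was rescaled to 1000. Values were floored at the 20th percentile and log2 transformed. Of 12488 probe sets, 66 controls were left out, and 7069 of 12422 lay above their own array's median on at least 2 arrays and were tested. The platform annotation gave 10833 probe sets a single symbol, 396 several and 1193 none.

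Fits were made with limma 3.58.1 in R 4.3.3 (lmFit, eBayes, region as a fixed block, Benjamini-Hochberg adjustment, threshold 0.05), and were tested on simulated data. Another fit added the interaction of region and induction, and gave the effects within each region. CA1 has 1 uninduced array, which was assumed to vary like the others. Nothing in the labels ties arrays with the same replicate number to the same animals. The p-values rest on the spread of arrays around the fit. That spread also holds differences between times off dox and between wild type and VC on dox. Pooling is stated for the hippocampal samples. A fold is "at least" where a lower array lay at the floor. Named genes were those passing in the joint fit, else the 12 smallest p in each direction, 13 fixed genes, those differing between regions and up to 4 leading genes of a list. Lists used the brightest tested probe set of each gene. The members and the 33 lists were chosen with earlier results of these data known. The reversed array, named VC in its title and wild type in its description, was left out of every fit. Alternatives covered scaling, floor, filter, blocks, the choice of controls and leaving out arrays. The number of arrays limits the precision.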

Additional observations from a re-analysis of the deposited data

Results flagged for a closer look

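Ttr, the transthyretin gene of the choroid plexus, read 8.64 on the first 2-week array against 12.15 to 13.10 on the other 4 induced hippocampal arrays, a gap of 0.787 of the whole range. The limit used for such gaps is one that chance passes in about 1 in 20 groups of replicates, and these 5 arrays span 3 times off dox. It was applied to all the named higher and lower genes, the fixed genes and those differing between regions. Over that many genes a single gap past the limit is not unusual.

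The effect of induction was higher in CA1 than in hippocampus by 2.23 for Rapsn, 2.62 for Ube2f, 2.13 for Cyb561 and 2.49 for a Plod3 probe set (interaction adjusted p = 0.0497, limma), each resting on a low value of the single wild-type CA1 array.

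The array of VC mice put back on dox, which no fit used, lay above all 3 uninduced hippocampal arrays for 11 of 20 named genes with a positive difference, against 31.3% of all tested probe sets. Creb1 read 7.10 there, above 6.33 on the highest uninduced array, and Cst7 9.64, above 6.24. Gfap read 10.91 (10.21), Polr3k 8.62 (8.15), Adcy7 8.68 (8.04), Lamp2 8.58 (8.28), B2m 11.92 (11.47), H1f2 9.58 (9.43), C1qa 11.70 (11.55), Inhba 7.93 (7.84) and Tpm4 10.40 (10.34), with the highest uninduced array in brackets. The other 9 did not, among them Pdyn at the floor (6.04), and Bdnf (11.20), Dap (8.17), Tinf2 (9.063) and Ttr (9.21), which were below all 3. H2-Ab1 (6.31), H2-Q5 (8.12), Fos (10.18) and Nr4a1 (10.63) lay within the uninduced range. Of the 51 probe sets called without the 1-week arrays, 32 lay above all 3 uninduced arrays there, with a median difference of 0.27. The 51, and 12 of the 20 named genes, were chosen as higher than these same uninduced arrays. A further array tends to lie above arrays chosen against in this way, so 31.3% is not a like background for either count.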

How the results depend on the processing

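The count of 2 higher probe sets was also 2 without the region block, with region as a random block, with the deposited scale as a further block, after quantile or median scaling, with a floor at the 5th percentile, with a filter on 4 arrays and with wild-type arrays alone as controls. It was 3 with trend and robust settings, 1 with a floor at the 40th percentile, without a filter or with hippocampus alone, 0 with CA1 alone, 51 without both 1-week arrays, and 2 to 4 without single arrays (4 without the first 1-week array). The lower count was 0 to 1 without single arrays (1 without the second wild-type hippocampus array). Values as deposited gave 11 higher, with the median of all probe sets at 0.62 since both scales remain. There Synj2bp (0.034), Ivd (0.18), Tbc1d20 (0.16), Spout1 (0.13), Incenp (0.18), Hnrnpm (0.17), Bcat2 (0.14), Abcc8 (0.18), Epha7 (0.068) and Sst (0.62) turned positive. Sst was also positive after quantile scaling (0.0024), in CA1 alone (0.013) and without both 1-week arrays (0.13), and it ran from -0.063 to 0.042 without single arrays. Ttr was -0.077 in CA1 alone. Rapsn, Ube2f and Cyb561 were -0.174, -0.213 and -0.092 with hippocampus alone and the same without the wild-type CA1 array, and at most 0.623, 0.717 and 0.635 without any other array.

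Correlations of number 1 minus number 2 between groups ran from -0.226 to 0.195. With so few groups they cannot decide whether arrays with the same replicate number belong together. With the replicate block, on numbered arrays, 0 probe sets were higher in limma (78 at an unadjusted p under 0.05), Nr4a1 was -0.067, and Rapsn, Ube2f and Cyb561 were -0.185, -0.252 and -0.067.

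The 4 probe sets whose effect was higher in CA1 became 0 with values as deposited or a floor at the 40th percentile, 2 with trend and robust settings, 8 after quantile scaling (with 1 lower), 61 without a filter (with 167 lower), and 0 to 21 without single arrays (0 to 13 lower). Those without the 1-week arrays, with settings added after seeing the data, were 13 with hippocampus alone and 13 to 61 without single arrays (0 to 1 lower). The causes were not tested. Creb1 (2.79 to 3.03) and Pdyn (3.43 to 3.86) passed without any single array. Depth is unknown for these arrays, and where arrays of the lower group alone lie at the floor a difference is a lower bound.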
